A study of Mus musculus with 9 samples.

Results

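The 8 genes described here are the FoxO transcription factor genes Foxo1, Foxo3 and Foxo4, the ubiquitin ligase genes Fbxo32, Trim63, Fbxo31 and Fbxo40, and the growth inhibitor gene Mstn. They were chosen by name, and all 8 were found among the 29237 genes of the deposited FPKM table. FPKM divides a gene's fragment count by its transcript length and by the library's mapped fragments, so levels can be set side by side between genes. Polyadenylated RNA was sequenced from hearts of wild-type C57BL/6 mice aged 8 to 12 weeks, in 3 libraries labelled TPTN, 3 labelled DOX and 3 labelled Control. The design text calls these a TPTN treated group, a doxorubicin model group and a normal group, and the labels do not spell out TPTN. Doxorubicin is a cancer drug with known toxicity to the heart. Whether the hearts labelled TPTN had doxorubicin as well is not given, and neither are the dose, the day and the chamber of the heart that was sampled. Nothing in the labels states that the libraries of a group come from separate animals, so each p-value reflects the spread among these samples, which may be technical.

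FoxO factors are held in the cytoplasm when insulin or IGF signalling activates the kinase Akt, and enter the nucleus to switch on their targets when that signal falls. In mouse skeletal muscle and heart their targets include Fbxo32, which encodes atrogin-1, and Trim63, which encodes MuRF1. Both are ubiquitin ligases that mark muscle proteins for the proteasome, and both are known for rising in wasting skeletal muscle. Fbxo31 encodes an F-box protein that directs cyclin D1 to degradation, and Fbxo40 a muscle F-box protein that targets the insulin receptor substrate Irs1. Mstn encodes myostatin, a secreted inhibitor of muscle growth that is made mainly in skeletal muscle. FoxO activity is set largely by phosphorylation, which messenger RNA levels do not show.

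The upstream sequence of Trim63 is shown because, among the members with a window in the RefSeq promoter table (GRCm38.p6), it alone held either motif searched. It is given for chr4:134314870-134315119 on the plus strand, the 250 bases before the gene start, with the FoxO motif in capitals.
Trim63 upstream: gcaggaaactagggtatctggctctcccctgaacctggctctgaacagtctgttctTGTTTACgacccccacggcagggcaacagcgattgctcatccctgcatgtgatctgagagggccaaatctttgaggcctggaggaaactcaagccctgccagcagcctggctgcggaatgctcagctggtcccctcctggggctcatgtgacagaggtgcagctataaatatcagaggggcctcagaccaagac

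The FoxO motif searched was GTAAACA on both strands, and it was met in Trim63 as its reverse complement TGTTTAC, starting 194 bases before the gene start. Of 32851 promoter windows, each of 250 bases before to 50 after a gene start, 3.65% held this motif. The full palindromic glucocorticoid element, whose half-sites are set 3 bases apart, occurred in 3 windows and not in that of Trim63. Its core, without the outer base on each side, a search added after the data were seen, occurred in 19 windows (0.0578%), and in Trim63 it started 208 bases before the gene start, with 1 mismatch to the full element. The 2 matches lie side by side and share 0 bases, as the stretch chr4:134314907-134314936 shows with each in capitals in turn.
Trim63 glucocorticoid core: gctctGAACAGTCTGTTCttgtttacgacc
Trim63 FoxO motif: gctctgaacagtctgttctTGTTTACgacc
The windows of Foxo1, Foxo3, Fbxo31, Fbxo40 and Mstn held neither motif within these bases, and Foxo4 and Fbxo32 were not searched here. The windows of Fkbp5, Per1, Tsc22d3 and Klf15, read below as glucocorticoid-responsive genes, held neither the full element nor its core. A match is a description of the letters and not a measured binding site.

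Estimated depth was 19500000 to 21400000 fragments in TPTN libraries, 18900000 to 19500000 in DOX and 22900000 to 24400000 in Control. These depths are not established, since they were inferred from the spacing of low FPKM values. Just 9.71 to 13.1% of these values per library came out as whole fragments, near what the tolerance of 0.05 gives by itself. A difference in depth between the groups therefore cannot be read from them. Genes of the mitochondrial chromosome took 48.1 to 48.7% of the FPKM sum in TPTN, 44.7 to 46.2% in DOX and 49.8 to 50.9% in Control. Copies of them in the nuclear genome took a further 18.6 to 19.0% in TPTN, 18.0 to 18.3% in DOX and 19.2 to 19.7% in Control. The groups thus did not overlap in the share left to all other genes. The 7 cardiomyocyte markers summed to 8683 to 8902 FPKM in TPTN, 8161 to 9308 in DOX and 7521 to 8274 in Control. The 8 skeletal muscle markers found in the table, of 10 listed, summed to at most 1.57 FPKM in any library. DOX replicate 1 stood apart in its atrial myocyte markers, which summed to 2510 FPKM against 289 and 196 in DOX replicates 2 and 3, 52.8 to 121 in TPTN and 51.5 to 148 in Control. Changes or counts without this library are given beside results that it moved by over 1.5 times or whose call it changed.

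Levels per transcript length placed the ligases Trim63 and Fbxo40 at the top in every group. Fbxo40 averaged 37.6 FPKM and Trim63 36.1 FPKM in TPTN, and their libraries overlapped there as they did in DOX and in Control. Fbxo31, Foxo4 and Fbxo32 formed a middle tier of 9.68 to 12.3 FPKM in TPTN, 10.5 to 15.3 FPKM in DOX and 12.3 to 16.1 FPKM in Control. Within that tier, Fbxo31 and Foxo4 overlapped in TPTN, Foxo4 and Fbxo32 overlapped in DOX, and in Control Fbxo32 overlapped with both of its neighbours. Foxo3 came next, with libraries below those of Fbxo32 in TPTN and below those of Foxo4 in Control, but overlapping with Fbxo32 in DOX. Foxo1 and then Mstn were the lowest in every group, with no overlap with the gene above. The plot of levels by library shows all 8 genes.

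**Figure D1:**
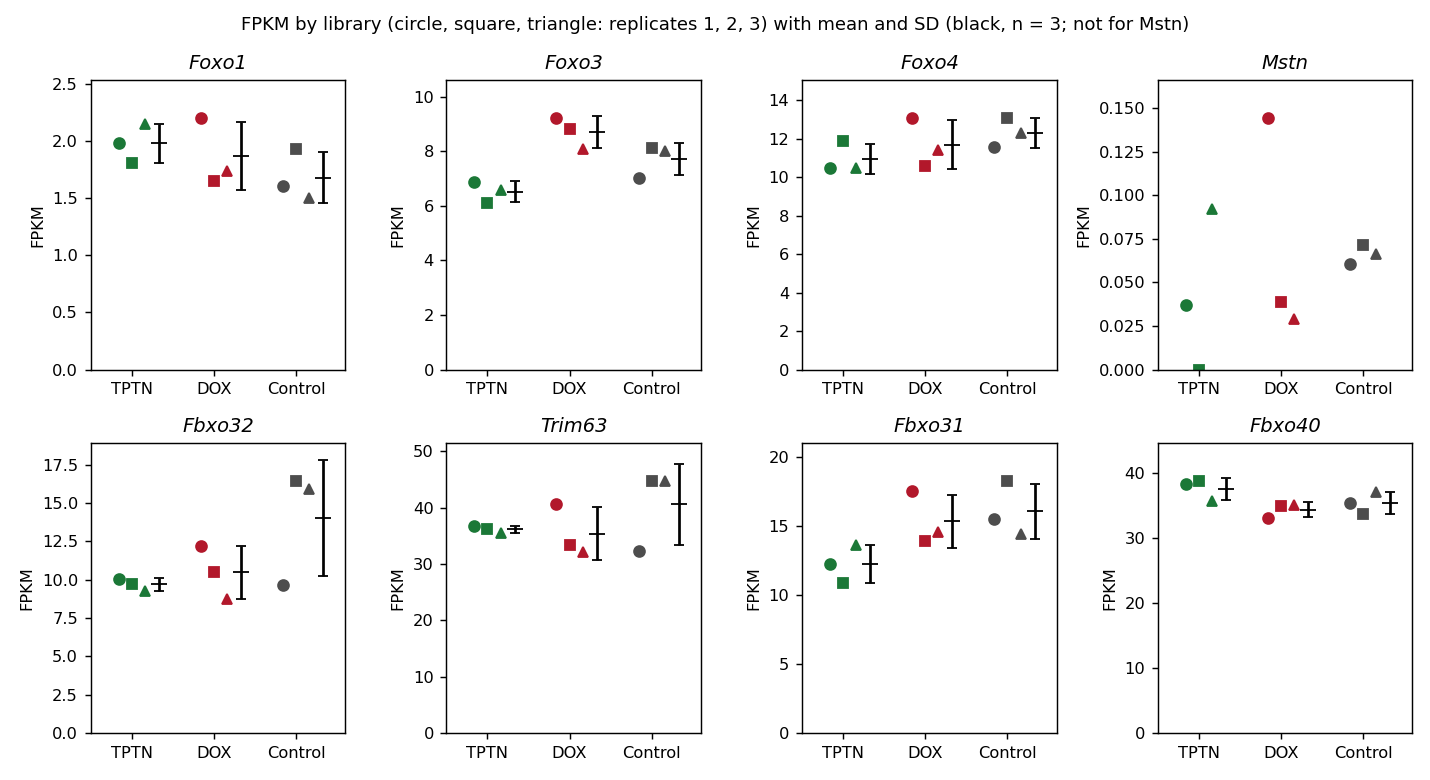
FPKM (vertical axes, from 0) of each of the 8 genes in the 3 TPTN, 3 DOX and 3 Control libraries, with circle, square and triangle for replicates 1, 2 and 3 and black bars for the mean and SD (n = 3), which are left out for Mstn. The 3 TPTN libraries of Foxo3 sit at 6.11 to 6.88 FPKM, below all 6 others, and Control replicate 1 of Fbxo32 sits at 9.67 FPKM, apart from the other Control libraries.

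Foxo3 was the only member to pass the test between TPTN and DOX with all libraries, a call kept in 6 of 19 other settings. Foxo3 (ENSMUSG00000048756; GRCm38 chromosome 10, from 42181841 to 42276755, minus strand) encodes the FoxO factor best known for switching on the atrophy ligases and autophagy genes in mouse muscle. It stood at 6.88, 6.11 and 6.60 FPKM in TPTN replicates 1, 2 and 3, against 9.24, 8.83 and 8.08 FPKM in DOX and 7.04, 8.12 and 8.01 FPKM in Control. Every TPTN library was below every DOX library and, by a narrow margin, below every Control library, while DOX and Control overlapped. Here and in all comparisons below, limma tested log2(FPKM + 1) over 12500 genes with a mean of at least 0.5 FPKM, and a gene passed at a Benjamini-Hochberg adjusted p under 0.05. On this scale Foxo3 fell by 0.37 in TPTN relative to DOX (SE 0.08, 95% interval -0.54 to -0.19, limma adjusted p = 0.0352). That is a ratio of 0.775 in FPKM + 1, and the mean FPKM was 6.53 in TPTN and 8.72 in DOX. In bulk heart RNA, fewer cells of a type and less RNA per cell cannot be told apart, here or in the other results.

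The Foxo3 difference kept its sign in all 19 other settings tried, from -0.42 to -0.25, but passed in 6 of them (adjusted p 0.0276 to 0.166). When each library was scaled without mitochondrial genes and copies of them in the nuclear genome, it was -0.25 (adjusted p = 0.116). It did not pass without DOX replicate 1, 2 or 3 (limma adjusted p = 0.0608, 0.106 and 0.0649), without TPTN replicate 1, 2 or 3 (0.0855, 0.0890 and 0.0917) or without Control replicate 3 (0.0572). For TPTN against Control the change of Foxo3 was -0.21 (SE 0.08, 95% interval -0.39 to -0.04, adjusted p = 0.278), and for DOX against Control 0.16 (95% interval -0.02 to 0.33, adjusted p = 0.337). Scaled without mitochondrial genes and copies, the difference between DOX and Control was 0.0080 (limma adjusted p = 0.973), and without Control replicate 1 it was 0.098 (adjusted p = 0.637). The 3 comparisons share libraries, so these values are not independent of each other. In the authors' deposited table, whose groups are not named, Foxo3 has a q-value of 0.0125 and is marked significant.

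Foxo1 and Foxo4 passed in none of the 3 comparisons. Foxo1 (ENSMUSG00000044167; chromosome 3, from 52268336 to 52353221, plus strand) encodes the FoxO factor known for metabolic control in liver and muscle. It had 1.98, 1.81 and 2.15 FPKM in TPTN, 2.21, 1.65 and 1.74 FPKM in DOX and 1.60, 1.94 and 1.51 FPKM in Control, and all groups overlapped. Its log2 change was 0.06 for TPTN against DOX (95% interval -0.15 to 0.27, limma adjusted p = 0.767), 0.09 for DOX against Control (adjusted p = 0.664) and 0.16 for TPTN against Control (adjusted p = 0.541). Without DOX replicate 1 the change of Foxo1 was 0.14 for TPTN against DOX and 0.011 for DOX against Control. Foxo4 (ENSMUSG00000042903; chromosome X, from 101254528 to 101260873, plus strand) encodes a FoxO factor under the same control by Akt, and had the highest level of the 3. It had 10.5, 11.9 and 10.5 FPKM in TPTN, 13.1, 10.6 and 11.4 FPKM in DOX and 11.6, 13.1 and 12.3 FPKM in Control. The groups of Foxo4 overlapped in each comparison, with log2 changes of -0.09 for TPTN against DOX (95% interval -0.28 to 0.11, limma adjusted p = 0.619), -0.07 for DOX against Control (adjusted p = 0.728) and -0.16 for TPTN against Control (adjusted p = 0.485). Without DOX replicate 1 the change of Foxo4 was -0.0086 for TPTN against DOX and -0.15 for DOX against Control.

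The makeup of the FoxO family can be read within each library, where the scaling of the library drops out. Foxo4 took 54.2 to 60.0% of the summed FPKM of Foxo1, Foxo3 and Foxo4 in TPTN, 50.2 to 53.8% in DOX and 56.4 to 57.2% in Control. Foxo3 took 30.9 to 35.5% in TPTN, 37.6 to 41.9% in DOX and 34.9 to 36.7% in Control. DOX libraries thus had the highest Foxo3 shares and the lowest Foxo4 shares, without overlap with either other group. The ratio of Foxo3 to Foxo1 was 3.47, 3.37 and 3.07 in TPTN, against 4.19, 5.34 and 4.64 in DOX and 4.39, 4.20 and 5.32 in Control. All 3 TPTN ratios lay below all 6 others. These ratios were chosen after the levels were seen and carry no test. Foxo6, the remaining family member, had 0.402, 0.601 and 0.620 FPKM in TPTN, 0.582, 0.370 and 0.327 FPKM in DOX and 0.307, 0.438 and 0.317 FPKM in Control, and was below the minimum for testing.

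Fbxo32 and Trim63, the classical atrophy ligases, passed in none of the 3 comparisons with all libraries, and neither was higher in DOX or TPTN than in all Control libraries. Fbxo32 (ENSMUSG00000022358; chromosome 15, from 58175879 to 58214932, minus strand) had 10.1, 9.74 and 9.26 FPKM in TPTN, 12.2, 10.5 and 8.75 FPKM in DOX and 9.67, 16.4 and 15.9 FPKM in Control. Control replicate 1 lay within the range of the TPTN and DOX libraries, while Control replicates 2 and 3 lay above all of them. The log2 change was -0.36 for DOX against Control (SE 0.18, 95% interval -0.78 to 0.05, limma adjusted p = 0.348) and -0.46 for TPTN against Control (95% interval -0.87 to -0.04, adjusted p = 0.333). For TPTN against DOX it was -0.09 (95% interval -0.51 to 0.32, adjusted p = 0.820), with a sign that turned to 0.027 when scaled without mitochondrial genes and copies and to 0.013 without DOX replicate 1. Control replicate 1 decided the calls against Control. Without it, Fbxo32 was lower in DOX by a log2 change of -0.59 (limma adjusted p = 0.0377) and in TPTN by -0.69 (adjusted p = 0.0279). In the authors' deposited table Fbxo32 has a q-value of 0.0793 and is marked significant, for groups that are not named. The antisense gene Gm15943 overlaps Fbxo32 and averaged 0.360 FPKM, and the sources used here do not say whether counting used the strand.

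Trim63 (ENSMUSG00000028834; chromosome 4, from 134315120 to 134329629, plus strand) had the same 2 Control libraries on top. It stood at 36.8, 36.1 and 35.5 FPKM in TPTN, 40.7, 33.3 and 32.0 FPKM in DOX and 32.3, 44.7 and 44.7 FPKM in Control. Control replicate 1 was again within the range of the DOX libraries, and TPTN varied least, with an SD of 0.650 FPKM against 4.68 in DOX and 7.14 in Control (n = 3 each). The log2 change of Trim63 was 0.04 for TPTN against DOX (95% interval -0.25 to 0.32, limma adjusted p = 0.903), -0.19 for DOX against Control (95% interval -0.47 to 0.10, adjusted p = 0.501) and -0.15 for TPTN against Control (95% interval -0.43 to 0.13, adjusted p = 0.680). Without Control replicate 1 the change of Trim63 was -0.34 for DOX against Control (limma adjusted p = 0.123) and -0.30 for TPTN against Control (adjusted p = 0.213). It was -0.11 and -0.072 in the same comparisons without Control replicate 2, and -0.11 and -0.073 without Control replicate 3. Without DOX replicate 1 it was 0.14 for TPTN against DOX and -0.29 for DOX against Control, and scaled without mitochondrial genes and copies it was 0.17 and -0.35. Its sign for TPTN against DOX turned without DOX replicate 2 (-0.00079) and without DOX replicate 3 (-0.028).

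Within libraries the ratio of the 2 ligases ranged from 2.72 to 3.83. Trim63 over Fbxo32 was 3.66, 3.71 and 3.83 in TPTN, against 3.33, 3.18 and 3.66 in DOX and 3.34, 2.72 and 2.81 in Control. The 3 TPTN ratios lay above all Control ratios and overlapped with DOX. Hemoglobin and other erythroid markers, 5 of 5 found, summed to 603, 542 and 447 FPKM in TPTN, 331, 927 and 971 FPKM in DOX and 944, 449 and 396 FPKM in Control. The libraries with the 3 highest sums, DOX replicates 2 and 3 and Control replicate 1, are those with the 3 lowest Trim63 levels, and the part of blood in this was not tested. In the plot of both ligases by library, these points are the lowest on the Trim63 axis. On the Fbxo32 axis they stand at 10.5, 8.75 and 9.67 FPKM, around the TPTN libraries at 9.26 to 10.1 FPKM.

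**Figure D2:**
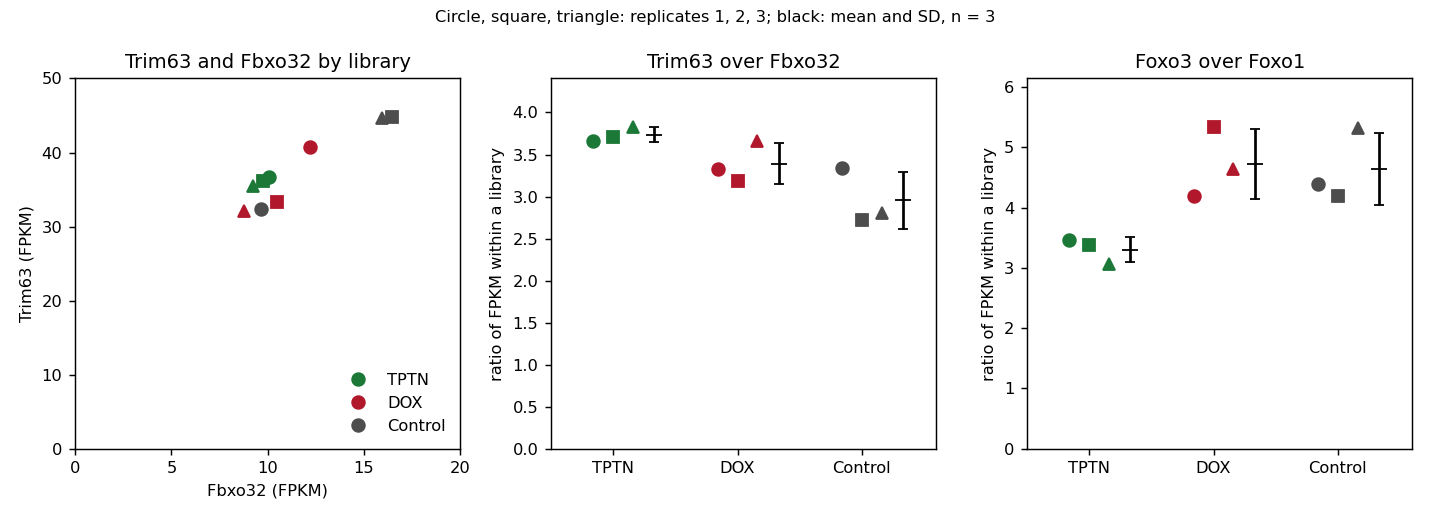
Left, Trim63 against Fbxo32 (FPKM) in each of the 9 libraries, coloured by group, with circle, square and triangle for replicates 1, 2 and 3; middle and right, the ratios Trim63 over Fbxo32 and Foxo3 over Foxo1 within each library, with the mean and SD in black (n = 3). Control replicates 2 and 3 lie at the upper right with Trim63 at 44.7 FPKM, and the TPTN ratios of Foxo3 to Foxo1, at most 3.47, lie below those of DOX and Control.

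Over the 9 libraries, log2(FPKM + 1) of Fbxo32 and Trim63 had a Pearson r of 0.93. With the members left out, the genes that followed Fbxo32 most closely were Dbt, which encodes a subunit of branched-chain keto acid dehydrogenase (Pearson r 0.94), the mitochondrial transfer RNA gene mt-Tt (0.92) and Ivns1abp (0.89). Those closest to Trim63, again with the members left out, were Acss1, an acetyl-CoA synthetase gene of mitochondria (0.92), the microRNA gene Mir5125 (0.91) and Vldlr, a lipoprotein receptor gene (0.89). They are the 3 highest of 4140 genes other than the members searched for each ligase, so the values are a description and not a test. Dbt had 11.9, 13.4 and 11.9 FPKM in TPTN, 13.5, 12.6 and 11.8 FPKM in DOX and 12.5, 15.3 and 15.6 FPKM in Control, with Control replicates 2 and 3 again on top. The values of mt-Tt and Mir5125 are uncertain, as short RNA genes can share reads with their neighbours.

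Fbxo31 and Fbxo40 went opposite ways in TPTN without passing the test. Fbxo31 (ENSMUSG00000052934; chromosome 8, from 121549440 to 121578806, minus strand) had 12.2, 10.9 and 13.7 FPKM in TPTN, 17.5, 13.9 and 14.6 FPKM in DOX and 15.5, 18.3 and 14.4 FPKM in Control. All TPTN libraries were below all DOX and all Control libraries. The log2 change of Fbxo31 was -0.30 for TPTN against DOX (95% interval -0.55 to -0.05, limma adjusted p = 0.163), -0.36 for TPTN against Control (95% interval -0.61 to -0.11, adjusted p = 0.189) and -0.06 for DOX against Control (adjusted p = 0.825). Scaled without mitochondrial genes and copies, the value of Fbxo31 was -0.18 for TPTN against DOX (limma adjusted p = 0.389), and -0.22 for DOX against Control (adjusted p = 0.345). For DOX against Control it was -0.16 without DOX replicate 1, and its sign turned to 0.029 without Control replicate 2. The authors' deposited table gives Fbxo31 a q-value of 0.117 and marks it significant. The coding gene Gm20388 lies on the opposite strand over Fbxo31.

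Fbxo40 (ENSMUSG00000047746; chromosome 16, from 36963460 to 36990467, minus strand) had 38.3, 38.8 and 35.7 FPKM in TPTN, 33.1, 34.9 and 35.1 FPKM in DOX and 35.5, 33.8 and 37.1 FPKM in Control. The TPTN libraries were all above the DOX libraries and overlapped with Control. Its log2 change was 0.13 for TPTN against DOX (SE 0.06, 95% interval -0.02 to 0.27, limma adjusted p = 0.297), -0.04 for DOX against Control (adjusted p = 0.783) and 0.08 for TPTN against Control (adjusted p = 0.643). Scaled without mitochondrial genes and copies, the difference between TPTN and DOX was 0.26 and passed (adjusted p = 0.0403), and that between DOX and Control was -0.20 (adjusted p = 0.0994). Without DOX replicate 1 the difference between DOX and Control was -0.016. That scaling moved the median of all genes for this comparison to 0.08, against -0.01 with FPKM as deposited. The ratio of Fbxo31 to Fbxo40 within a library was 0.319, 0.280 and 0.383 in TPTN, against 0.530, 0.399 and 0.415 in DOX and 0.437, 0.542 and 0.388 in Control. The TPTN ratios lay below all others, again with no test since the ratio was chosen after the levels were seen.

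Mstn (ENSMUSG00000026100; chromosome 1, from 53061640 to 53068079, plus strand) was at the floor of detection. It had 0.0368, 0 and 0.0922 FPKM in TPTN, 0.145, 0.0387 and 0.0289 FPKM in DOX and 0.0607, 0.0716 and 0.0661 FPKM in Control. If the depths above held, which was not established, these values would correspond to 0 to 7.44 fragments per library. The gene was below the minimum for testing. A difference between groups was therefore not tested.

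Counted together, 7 of the 8 genes were tested. For TPTN against DOX 1 of 7 passed, Foxo3, where 3.26% of all 12500 genes passed (0.792% higher and 2.46% lower). In the same comparison 3 of 7, namely Foxo3, Fbxo31 and Fbxo40, had no overlap between the groups, against 24.5% of all genes (10.4% higher and 14.1% lower). For DOX against Control 0 of 7 passed in limma and 0 had an unadjusted p under 0.05, where 2.63% of all genes passed (2.23% higher and 0.4% lower) and 18% had an unadjusted p under 0.05. Also 0 of 7 had no overlap there, against 22.8% of all genes (17.7% higher and 5.1% lower). For TPTN against Control 0 of 7 passed and 3 had an unadjusted p under 0.05 (Foxo3, Fbxo32 and Fbxo31), where 0.72% of all genes passed (0.336% higher and 0.384% lower) and 13.1% had an unadjusted p under 0.05. Foxo3 and Fbxo31 had no overlap in that comparison, both lower, 2 of 7 against 21.3% of all genes (15.2% higher and 6.03% lower). With so few members, none of these shares sets the family apart from other genes. The median log2 change of the 7 was -0.09, -0.06 and -0.16 in the order TPTN against DOX, DOX against Control and TPTN against Control, beside -0.01, 0.04 and 0.04 for all genes.

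**Figure D3:**
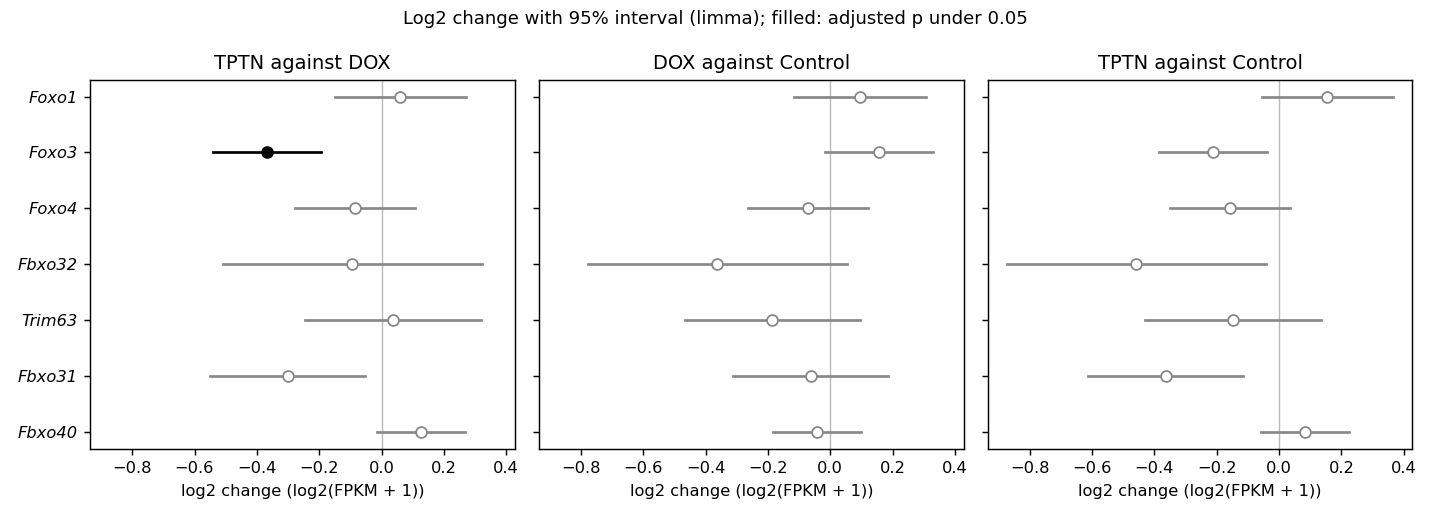
Log2 change of log2(FPKM + 1) with its 95% interval from limma (horizontal axes) for the 7 tested genes in TPTN against DOX, DOX against Control and TPTN against Control, filled where the adjusted p is under 0.05. The only filled point is Foxo3 in TPTN against DOX at -0.37, and the widest intervals are those of Fbxo32.

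Upstream of FoxO, 20 genes of insulin, IGF and Akt signalling and FoxO modifiers were tested, and 1 passed in each comparison. Over all genes 3.26% passed for TPTN against DOX, 2.63% for DOX against Control and 0.72% for TPTN against Control. A single call among 20 genes does not set the list apart from other genes. Irs2, which encodes an insulin receptor substrate and is itself a FoxO target in mouse liver, had 1.11, 1.02 and 1.02 FPKM in TPTN, 3.17, 1.99 and 2.52 FPKM in DOX and 1.74, 0.914 and 1.18 FPKM in Control. DOX was above both other groups without overlap. Irs2 fell in TPTN relative to DOX with a log2 change of -0.78 (SE 0.14, limma adjusted p = 0.0242) and rose in DOX relative to Control with 0.65 (SE 0.14, adjusted p = 0.0436). The call for TPTN against DOX was lost without DOX replicate 3 (adjusted p = 0.0743) or without TPTN replicate 1, 2 or 3 (0.0775, 0.0659 and 0.0733). That for DOX against Control held in 4 of 19 settings (adjusted p 0.0257 to 0.211), and of the single libraries only leaving out Control replicate 1 kept it. Pik3r1, the regulatory subunit gene of PI3 kinase, had 7.05, 6.47 and 7.61 FPKM in TPTN, 9.73, 9.49 and 7.31 FPKM in DOX and 10.05, 13.3 and 11.6 FPKM in Control. It fell in TPTN relative to Control (log2 change -0.65, SE 0.12, limma adjusted p = 0.0351), a call held in 9 of 19 settings (adjusted p 0.0253 to 0.254) and lost without any 1 of Control replicates 2 and 3, DOX replicate 2 and the TPTN replicates. The median log2 change of the 20 genes was 0.02 for TPTN against DOX, -0.02 for DOX against Control and 0.02 for TPTN against Control.

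Among 22 other known FoxO target genes, 4 were lower and 0 higher in TPTN than in DOX, with a median log2 change of -0.18, beside 2.46% lower, 0.792% higher and a median of -0.01 over all genes. They are Sesn1, Eif4ebp1, Klf15 and Map1lc3b. The list was chosen with earlier results of these data known, so its counts carry no test against other genes. Sesn1, which encodes a stress-induced inhibitor of mTORC1, had 14.8, 14.1 and 15.1 FPKM in TPTN, 22.4, 21.9 and 21.5 FPKM in DOX and 19.99, 24.7 and 24.6 FPKM in Control. Every TPTN library lay below all others, with log2 changes of -0.55 against DOX (SE 0.08, limma adjusted p = 0.0140) and -0.62 against Control (SE 0.08, adjusted p = 0.00969). Klf15, a transcription factor gene of amino acid metabolism, had 6.16, 6.46 and 5.30 FPKM in TPTN, 9.82, 9.80 and 7.33 FPKM in DOX and 11.3, 11.3 and 12.9 FPKM in Control. The 3 groups did not overlap, and Klf15 was lower in TPTN than in DOX by a log2 change of -0.51 (limma adjusted p = 0.0364) and than in Control by -0.88 (adjusted p = 0.00819).

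Eif4ebp1, which encodes a brake on translation initiation, had 9.88, 11.2 and 11.7 FPKM in TPTN, 17.1, 17.8 and 18.5 FPKM in DOX and 11.3, 15.2 and 16.7 FPKM in Control. It fell in TPTN relative to DOX by 0.65 on the log2 scale (SE 0.12, limma adjusted p = 0.0254). Map1lc3b, the gene of an LC3 protein of autophagosomes, had 17.2, 19.3 and 19.3 FPKM in TPTN, 22.4, 22.9 and 24.0 FPKM in DOX and 18.9, 19.4 and 19.8 FPKM in Control, and fell by 0.30 (limma adjusted p = 0.0366). In both genes every TPTN library was below every DOX library, and TPTN overlapped with Control.

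The count of 4 FoxO targets lower in TPTN than in DOX ranged from 0 to 5 over the settings. It was 2 when scaled without mitochondrial genes and copies, 0 with no filter on low values, 2 without Control replicate 3 or DOX replicate 3, 3 without DOX replicate 1, which ended the call of Klf15 (adjusted p = 0.0695), and 1 without DOX replicate 2 or any 1 of the TPTN replicates. Sesn1 alone of the 4 passed in 17 of 19 settings (adjusted p 0.00689 to 0.115). For DOX against Control 0 of the 22 passed in limma, where 2.63% of all genes passed, and the median of the 22 was -0.02. An unadjusted p under 0.05 was reached by 4 of them, against 18% of all genes. For TPTN against Control Sesn1 and Klf15 were lower, against 0.384% of all genes called lower, and 0 of the 22 were higher, with a median of -0.15. The count was 4 without Control replicate 1. A window of the Sesn1 promoter also held the FoxO motif, just after the gene start, while the other Sesn1 window did not. The windows of Klf15, Map1lc3b, Bnip3 and Gabarapl1 did not hold it. Eif4ebp1 had no window, and the other targets on the list were not searched. Over all promoter windows 3.65% held the motif, so a single match does not set these genes apart.

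**Figure D4:**
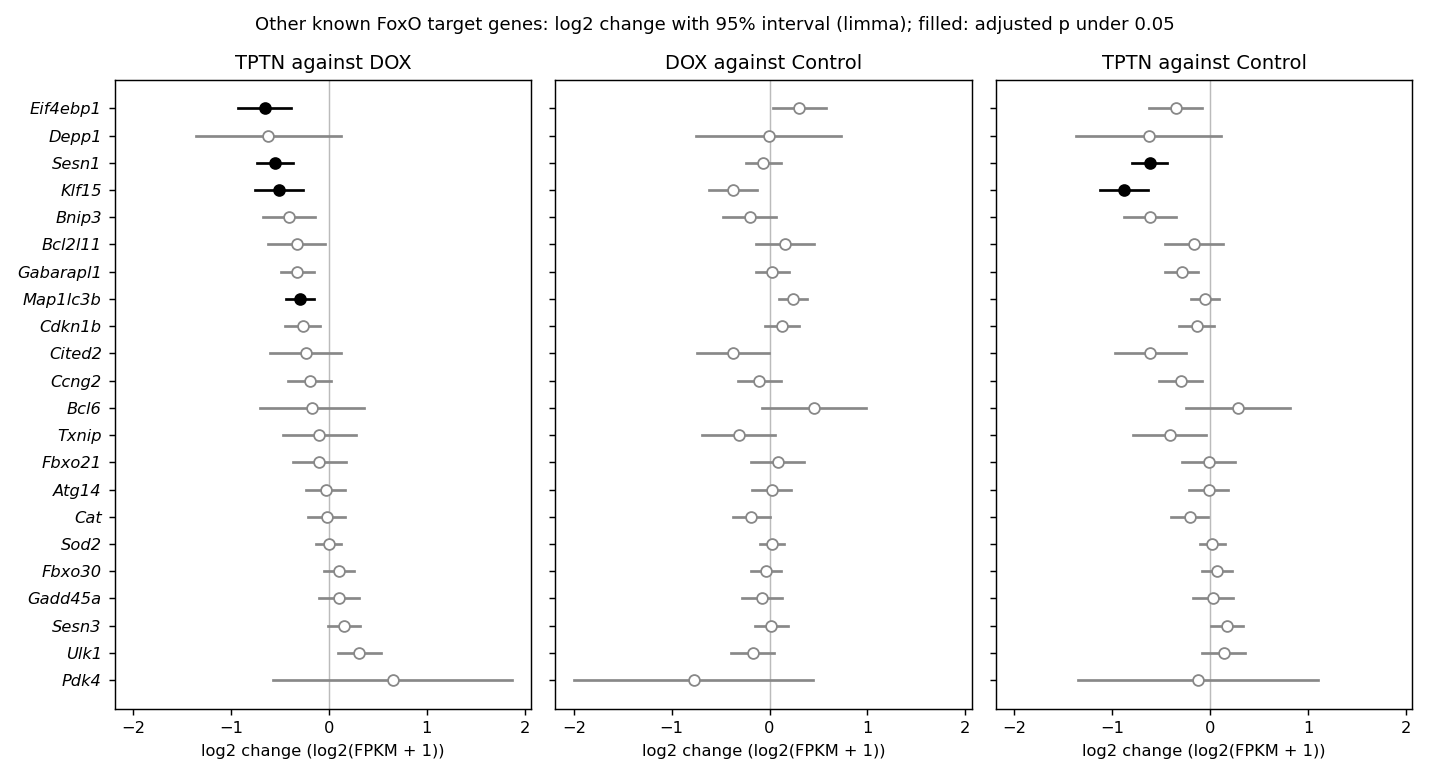
Log2 change of log2(FPKM + 1) with its 95% interval from limma (horizontal axes) for 22 known FoxO target genes other than the ligases, in TPTN against DOX, DOX against Control and TPTN against Control, filled where the adjusted p is under 0.05. In TPTN against DOX 4 genes are filled, all lower, from -0.65 for Eif4ebp1 to -0.30 for Map1lc3b, and in DOX against Control none is filled.

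Glucocorticoids are known to raise Trim63, Fbxo32 and Klf15 in mouse muscle, so 9 glucocorticoid-responsive genes were read beside them. This list too was chosen with earlier results of these data known, so its counts carry no test. For TPTN against DOX 4 of 9 were lower and 0 higher, with a median log2 change of -0.51, where 2.46% of all genes were lower and 0.792% higher. Besides Klf15, which is on both lists, they were Fkbp5, a chaperone gene of the receptor, Per1, a clock gene, and Tsc22d3, which encodes GILZ. Fkbp5 had 1.03, 0.941 and 0.971 FPKM in TPTN, 2.31, 2.21 and 2.23 FPKM in DOX and 2.94, 4.44 and 3.31 FPKM in Control, so the 3 groups did not overlap. Its log2 change was -0.71 for TPTN against DOX (SE 0.11, limma adjusted p = 0.0140), -0.48 for DOX against Control (adjusted p = 0.0443) and -1.19 for TPTN against Control (adjusted p = 0.00192). The DOX against Control call of Fkbp5 held in 4 of 19 settings (adjusted p 0.0326 to 0.205), and of the single libraries only leaving out Control replicate 1 kept it.

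Per1 had 1.72, 2.11 and 3.10 FPKM in TPTN, 7.54, 6.13 and 5.17 FPKM in DOX and 4.63, 4.99 and 5.34 FPKM in Control, and Tsc22d3 had 8.52, 9.15 and 10.2 FPKM in TPTN, 19.1, 16.0 and 12.7 FPKM in DOX and 18.0, 12.3 and 14.8 FPKM in Control. In both genes TPTN lay below all other libraries. Per1 changed by -1.15 for TPTN against DOX (limma adjusted p = 0.0134) and by -0.88 for TPTN against Control (adjusted p = 0.0358), and Tsc22d3 by -0.70 for TPTN against DOX (adjusted p = 0.0453). The call of Tsc22d3 held in 8 of 19 settings (adjusted p 0.0325 to 0.212), and without DOX replicate 1 its change was -0.57. The call of Per1 against Control was lost without any 1 of the Control replicates, DOX replicate 2 and TPTN replicates 1 and 2 (adjusted p 0.0578 to 0.135). The count of 4 lower for TPTN against DOX was 3 without DOX replicate 3, 2 without Control replicate 3, DOX replicate 1, DOX replicate 2, TPTN replicate 1 or TPTN replicate 2, and 1 without TPTN replicate 3, and it was 2 when scaled without mitochondrial genes and copies. For TPTN against Control 3 of 9 were lower (Fkbp5, Klf15 and Per1), against 0.384% of all genes, with a median of -0.88, and the count was 2 to 4 when single libraries were left out. Trim63 and Fbxo32 did not pass beside these genes.

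The relatives of the ligases gave few calls. Of 20 other muscle ligases and ligase subunits tested, 0 passed in limma for TPTN against DOX and 0 for TPTN against Control, with medians of 0.02 and 0.08. Over all genes 3.26% and 0.72% passed in these comparisons. An unadjusted p under 0.05 was reached by 4 of the 20 for TPTN against DOX, against 20.6% of all genes. For TPTN against Control it was reached by 5, against 13.1% of all genes. Klhl40, an adaptor gene of muscle, was alone in passing for DOX against Control, where 2.63% of all genes passed, with a median of 0.06 for the list. It had 5.21, 5.81 and 6.11 FPKM in DOX and 4.03, 3.03 and 3.67 FPKM in Control (log2 change 0.56, SE 0.09, limma adjusted p = 0.020), and did not pass without Control replicate 2 or 3 (adjusted p = 0.0650 and 0.0579) or DOX replicate 2 or 3 (0.0711 and 0.0644). Trim55 and Trim54, the closest relatives of Trim63, encode MuRF2 and MuRF3. Trim54 had 92.7, 89.97 and 106 FPKM in TPTN, 112, 115 and 128 FPKM in DOX and 112, 126 and 117 FPKM in Control, so every TPTN library was below all others. Its log2 change was -0.29 for TPTN against DOX (limma adjusted p = 0.0815) and -0.30 for TPTN against Control (adjusted p = 0.148). Trim55 had 22.3, 24.9 and 22.8 FPKM in TPTN, 20.6, 21.4 and 21.3 FPKM in DOX and 20.4, 19.4 and 21.4 FPKM in Control. TPTN libraries of Trim55 were above all others, with a log2 change of 0.14 against DOX (limma adjusted p = 0.261) and 0.19 against Control (adjusted p = 0.248).

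Of 12 tested genes whose proteins are reported substrates of these ligases, Ccnd1, the cyclin D1 gene and Fbxo31 substrate, had 14.3, 15.6 and 14.6 FPKM in TPTN, 5.50, 8.35 and 6.78 FPKM in DOX and 7.67, 5.39 and 8.56 FPKM in Control. It rose in TPTN relative to DOX (log2 change 1.03, SE 0.16, limma adjusted p = 0.0222) and to Control (0.97, adjusted p = 0.0304). Ccnd1 was the only list member to pass in either comparison, where 0.792% and 0.336% of all genes were called higher. For TPTN against DOX 8 of the 12 had an unadjusted p under 0.05 in limma, in both directions, against 20.6% of all genes. The TPTN against DOX call was lost without DOX replicate 3 (adjusted p = 0.0649) or TPTN replicate 1, 2 or 3 (0.0693, 0.0582 and 0.0644), and the TPTN against Control call without Control replicate 2, DOX replicate 3 or any 1 of the TPTN replicates (0.0511 to 0.119). Scaled without mitochondrial genes and copies, 3 of the list passed as higher in TPTN than in DOX, and 2 passed without DOX replicate 1. For DOX against Control 3 of 12 were higher, against 2.23% of all genes called higher. They are Eif3f (log2 change 0.43, limma adjusted p = 0.0204), a translation factor subunit gene and Fbxo32 substrate, and the sarcomere genes Myl2 (0.38, adjusted p = 0.0339) and Tnni3 (0.28, adjusted p = 0.0412), whose proteins are Trim63 substrates. None of the 3 passed when scaled without mitochondrial genes and copies, without Control replicate 2, without Control replicate 3 or without DOX replicate 2. Tnni3 did not pass without DOX replicate 1 (adjusted p = 0.0549) or Control replicate 1 (0.0571), and Eif3f alone passed without DOX replicate 3, TPTN replicate 2 or TPTN replicate 3. Irs1, the Fbxo40 substrate, had 3.16, 2.77 and 3.33 FPKM in TPTN, 2.24, 3.08 and 1.93 FPKM in DOX and 2.84, 2.75 and 2.77 FPKM in Control, with a log2 change of 0.27 for TPTN against DOX (limma adjusted p = 0.206). These are RNA levels and do not measure degradation, and the counts of this list carry no test.

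Of 19 genes of the myostatin pathway, 13 were tested and 1 passed, for TPTN against DOX, where 3.26% of all genes passed. Wfikkn2, which encodes a secreted binder of myostatin, had 1.09, 1.48 and 1.51 FPKM in TPTN, 2.36, 1.79 and 2.22 FPKM in DOX and 1.40, 1.48 and 1.35 FPKM in Control. It was lower in TPTN than in DOX with a log2 change of -0.41 (SE 0.10, limma adjusted p = 0.0476), a call that held in 3 of 19 settings (adjusted p 0.0381 to 0.208) and was lost without any 1 of the 9 libraries. For DOX against Control and for TPTN against Control 0 of 13 passed in limma, while 2 and 1 had an unadjusted p under 0.05. Over all genes 2.63% and 0.72% passed, and 18% and 13.1% had an unadjusted p under 0.05. The medians of the 13 were 0.01, 0.06 and 0.06 for TPTN against DOX, DOX against Control and TPTN against Control.

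The plot of settings sets the only member call beside the 2 that appear when Control replicate 1 is left out.

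**Figure D5:**
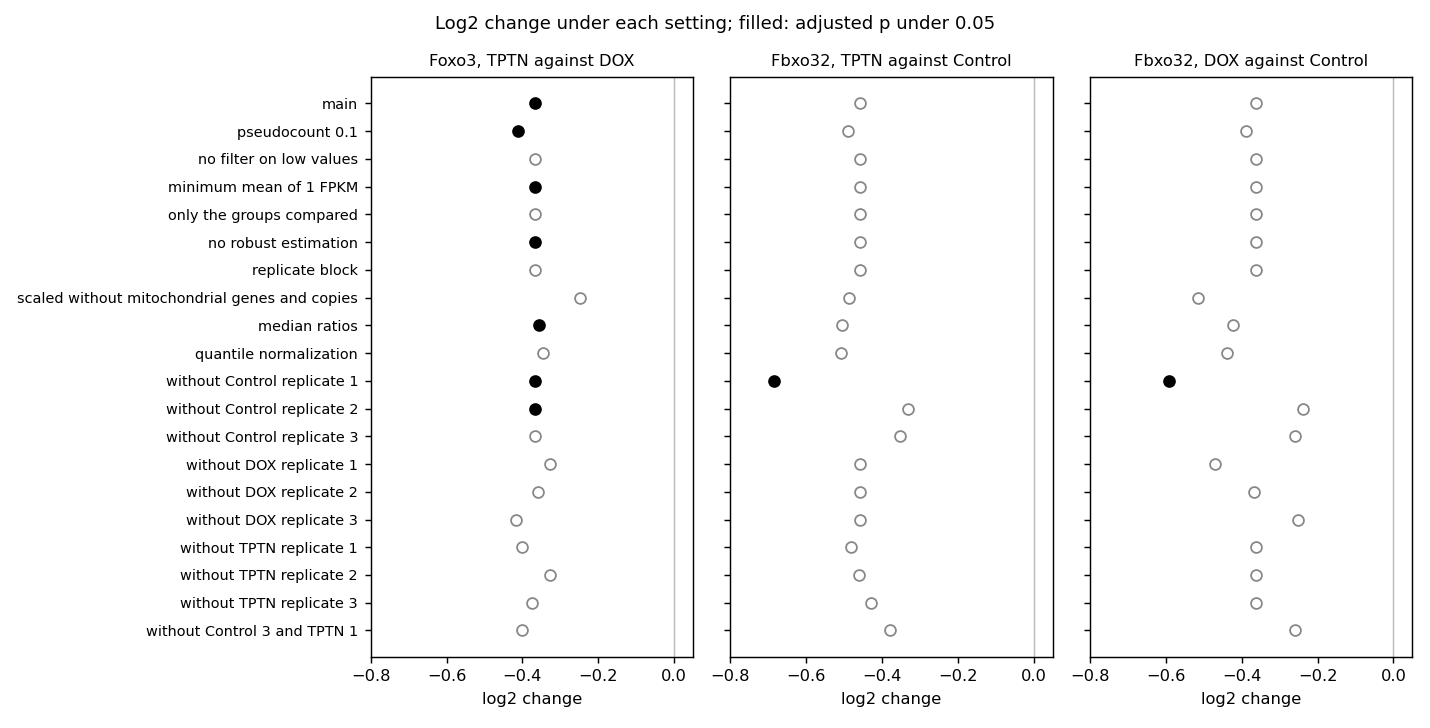
Log2 change (horizontal axes) of Foxo3 in TPTN against DOX, of Fbxo32 in TPTN against Control and of Fbxo32 in DOX against Control, with all libraries as reported (main) and under each of 19 other settings (rows), filled where the limma adjusted p is under 0.05. Foxo3 stays between -0.42 and -0.25 and is filled in 6 of the 19 other settings, and Fbxo32 is filled only without Control replicate 1.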

How the data were processed

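FPKM values per gene were used as the authors deposited them for the whole series. Per the submitters' processing notes, cutadapt 1.9, HISAT2 2.0.4, StringTie 1.3.4d and the GRCm38 genome were used, and DESeq2 and edgeR are named without a step. The strand setting of counting and any batch are not given in the sources used here. The deposited p-value and q-value columns name no groups, and 2892 genes are marked significant. Low FPKM values came out as whole fragments in just 9.71 to 13.1% of cases per library (tolerance 0.05), so limma was used in place of a count test.

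Values were log2(FPKM + 1), with a pseudocount of 1. The model, fitted in R 4.3.3 by limma 3.58.1 with tables read by version 1.17.8 of data.table, held 1 mean per group over 9 libraries, with trend and robust moderation and 6 residual degrees of freedom, and the two-sided p-values were adjusted by Benjamini-Hochberg over all 12500 genes. Log2 changes on this scale understate those of low genes. Simulated data with known changes were used to test the fit. Other settings covered the pseudocount, the filter, the scaling, the fit, the replicate number and single libraries. Members, lists and tests were chosen with earlier results of these data known. Genes named are the members, every list gene past the threshold, 5 genes related to members and the 3 closest to each atrophy ligase. The other settings for list genes were added after their values were seen. Positions are from GENCODE M21 and promoter windows from RefSeq. Plots used matplotlib 3.10.9, and all other steps numpy 2.4.6 and pandas 2.3.3 under Python 3.11.15.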

Additional observations from a re-analysis of the deposited data

How the results depend on the processing

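Of the log2 changes of the 7 tested members under the other settings, 376 kept their sign and their side of the threshold, 13 kept their sign and no longer passed, 3 newly passed and 7 changed sign. The 13 are all Foxo3 in TPTN against DOX. The sign changed to 0.027 for Fbxo32 and 0.037 for Foxo4 in TPTN against DOX, and to -0.011 for Foxo1 in DOX against Control, when scaled without mitochondrial genes and copies. With 1 library left out, Fbxo32 in TPTN against DOX ranged from -0.21 to 0.013 (positive without DOX replicate 1), Trim63 in TPTN against DOX from -0.028 to 0.14 (negative when DOX replicate 2 or 3 was left out) and Fbxo31 in DOX against Control from -0.16 to 0.029 (positive without Control replicate 2). The cause was not tested.

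For TPTN against DOX, 99 genes were higher and 308 lower. The counts were 0 and 2 with no filter on low values, 542 and 129 scaled without mitochondrial genes and copies, 149 and 280 under median ratios, 173 and 163 under quantile normalization, 1 and 5 with Control replicate 3 and TPTN replicate 1 left out together, and 9 to 166 and 32 to 329 with 1 library left out. Without DOX replicate 1 the counts were 166 and 318. Members called were 0 to 1 lower with 1 library left out, 0 lower with no filter, with only the groups compared, under quantile normalization and with those 2 libraries left out, and 1 higher and 0 lower scaled without mitochondrial genes and copies.

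For DOX against Control, 279 genes were higher and 50 lower. The counts were 2 and 0 with no filter, 149 and 26 with only the groups compared, 61 and 209 scaled without mitochondrial genes and copies, 110 and 63 under median ratios, 76 and 67 under quantile normalization, 5 and 0 with the same 2 libraries left out, and 2 to 271 and 0 to 57 with 1 library left out. Scaled without mitochondrial genes and copies, the median of all genes moved to -0.07 in this comparison, against 0.04. Members called lower were 0 to 1 with 1 library left out.

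For TPTN against Control, 42 genes were higher and 48 lower, 1 and 5 with no filter, 0 and 0 with those 2 libraries left out (1642 genes had an unadjusted p under 0.05 with all libraries), and 4 to 85 and 14 to 74 with 1 library left out. Without DOX replicate 1 the counts were 61 and 74. Members called lower were 0 to 1.

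Libraries with the same replicate number did not deviate together (correlations -0.26 to 0.02, and -0.25 to 0.40 for other pairs), so the numbers were not taken to pair the samples. The highest were 0.40 for Control replicate 3 with TPTN replicate 1, 0.29 for Control 1 with TPTN 2 and 0.23 for Control 2 with TPTN 3. TPTN replicate 1 also had a higher Pearson r with Control replicate 3 (0.9931) than with TPTN replicates 2 and 3 (0.9915 and 0.9920). Whether libraries of different groups are linked was not tested. With the replicate number as a block, counts were 37 higher and 122 lower for TPTN against DOX, with 0 members lower (Foxo3 -0.37, adjusted p = 0.0793), 141 and 29 for DOX against Control and 24 and 38 for TPTN against Control.

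The low level of Mstn left it untested. Having 3 libraries per group limits all tests: the Foxo3 call was lost without any 1 of 7 of the 9 libraries.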
